A study of Mus musculus with 5 samples.

Results

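The 10 genes described here are used as markers of spermatogonia, the mitotic germ cells that precede meiosis, and were followed in purified later germ cells: Id4, Nanos2, Gfra1, Zbtb16, Lin28a, Nanos3, Sall4, Kit, Stra8 and Uchl1. They were taken by gene symbol from a table of 56324 gene rows, where each of the 10 symbols stood on 1 row. RNA was sequenced from 3 spermatid samples, haploid cells that have completed meiosis, and 2 spermatocyte samples, cells in the course of it. All 5 samples came from C57Bl/6 male mice aged 12 weeks, with no mutation or treatment named, and the fractions were separated on a Sta-put gradient, where larger cells sink faster. The labels do not say whether samples were separate animals or pools, so the p-values cover spread among these 5 samples alone, and that spread may be technical. No spermatogonial sample was analysed here, so a level could not be set against that of the cells these genes are known for.

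Spermatogonial stem cells lie on the wall of the seminiferous tubule and depend on signals from Sertoli cells, above all the growth factor GDNF, which acts through the receptor RET and its co-receptor GFRA1. Stem and progenitor cells express transcriptional regulators and RNA-binding proteins such as ID4, ZBTB16 (PLZF), NANOS2, SALL4 and LIN28A. Retinoic acid then drives their differentiation, marked by the receptor tyrosine kinase KIT, and induces STRA8, which is needed to enter meiosis. In mouse spermatids an internal promoter of Kit is known to give a truncated product without the outer and transmembrane parts of the receptor. The table gives 1 value per gene, so full-length and truncated Kit transcripts could not be told apart, and introns were not analysed.

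Upstream sequences are shown for the members that differed between the cell types and held one of the short motifs searched. RefSeq promoters (build GRCm38.p6) were matched by symbol for 8 of the 10 members, all but Zbtb16 and Sall4. Kit had 2 RefSeq promoters, and the one with its start site nearest the start of the Kit row was used. Motif and CpG counts given for Kit cover that promoter only. The 250 bases before each RefSeq start site were searched on both strands for CANNTG, the E-box bound by the basic helix-loop-helix proteins that ID proteins oppose, for AGGTCA, a hexamer bound by nuclear receptors including those of retinoic acid, for GGGCGG, the GC box, and for TGACGTCA, the cyclic AMP response element. In the sequences below, written 5′ to 3′ on the gene's strand, capitals mark every match, where a GC box on the other strand reads CCGCCC. Stra8 lies at chr6:34920698-34920947 (plus strand), Gfra1 at chr19:58455399-58455648 (minus), Kit at chr5:75574737-75574986 (plus) and Id4 at chr13:48260866-48261115 (plus).
Stra8: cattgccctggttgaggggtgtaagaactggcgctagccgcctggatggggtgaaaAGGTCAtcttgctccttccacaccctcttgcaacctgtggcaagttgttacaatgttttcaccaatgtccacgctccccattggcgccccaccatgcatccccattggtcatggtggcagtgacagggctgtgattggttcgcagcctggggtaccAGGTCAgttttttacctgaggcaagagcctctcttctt
Gfra1: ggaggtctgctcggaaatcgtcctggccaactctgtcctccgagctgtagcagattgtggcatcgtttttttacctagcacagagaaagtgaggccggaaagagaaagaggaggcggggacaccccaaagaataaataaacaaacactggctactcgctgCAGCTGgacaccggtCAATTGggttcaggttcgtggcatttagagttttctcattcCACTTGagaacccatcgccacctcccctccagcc
Kit: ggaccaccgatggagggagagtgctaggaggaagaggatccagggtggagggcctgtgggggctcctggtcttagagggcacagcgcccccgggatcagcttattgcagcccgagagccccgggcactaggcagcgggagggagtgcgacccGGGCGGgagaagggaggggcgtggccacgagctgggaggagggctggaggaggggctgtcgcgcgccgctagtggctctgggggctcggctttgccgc
Id4: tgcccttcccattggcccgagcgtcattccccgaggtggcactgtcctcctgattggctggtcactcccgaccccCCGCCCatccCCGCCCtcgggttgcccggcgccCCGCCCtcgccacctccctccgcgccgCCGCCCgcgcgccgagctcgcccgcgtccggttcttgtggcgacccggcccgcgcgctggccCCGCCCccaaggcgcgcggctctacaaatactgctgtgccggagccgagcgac

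Stra8, which retinoic acid induces, held 2 AGGTCA hexamers, starting 194 and 38 bases before the start site, and 14.0% of all 32851 RefSeq promoters held at least 1. Gfra1 held 3 E-boxes, starting 90, 75 and 34 bases upstream, and an E-box was found in 66.2% of all promoters. Id4 held 5 GC boxes and Kit 1, against 32.7% of promoters with any. Nanos3, not among the members that differed, held 2 E-boxes, starting 193 and 148 bases upstream, and 1 GC box starting 216 bases upstream. No member held TGACGTCA, found in 1.55% of promoters. Lin28a, Uchl1 and Nanos2 held none of these motifs, which says only that these letters are not in this window. The members ranged widely in CpG dinucleotides, with 35 in Id4, 17 in Kit, 10 in Gfra1, 7 each in Lin28a and Uchl1, 5 in Stra8, 3 in Nanos3 and 0 in Nanos2, and the median promoter had 6. The Stra8 start site in RefSeq lies 785 bases inside the start of the deposited gene row, so its whole window lies within that row. The Gfra1 and Nanos3 windows lie within these genes as annotated in GENCODE vM21, where they extend to 58455909 and 84185217.

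The 10 genes did not move as a group. Values below are normalized counts, which the authors made by scaling each library by its size factor, and log2 fold changes are spermatids minus spermatocytes on log2(value + 1). Of the 9 members with a mean of at least 10, which could be tested, 4 were higher in spermatids (Stra8, Lin28a, Gfra1 and Kit), 2 were lower (Id4 and Uchl1) and 3 were not past the threshold (Zbtb16, Nanos3 and Sall4), by limma with a Benjamini-Hochberg adjusted p under 0.05 over all 28370 genes tested. Nanos2 was too low to test. Over all genes tested 40.6% were higher and 36.5% lower in spermatids, 77.1% in all, so that most genes were called and 6 of 9 members called is near that background. The groups did not overlap for 8 members, and for 85.8% of all genes tested. The median log2 fold change was 1.15 for the 9 tested members and 0.07 for all genes tested. Stra8, Lin28a, Gfra1 and Kit moved in the direction of the spermatid markers and of those of myoid, endothelial, macrophage and blood cells, and Id4 and Uchl1 in that of Sertoli, Leydig and spermatocyte markers, as given below; the part of those cells was not tested.

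**Figure D1:**
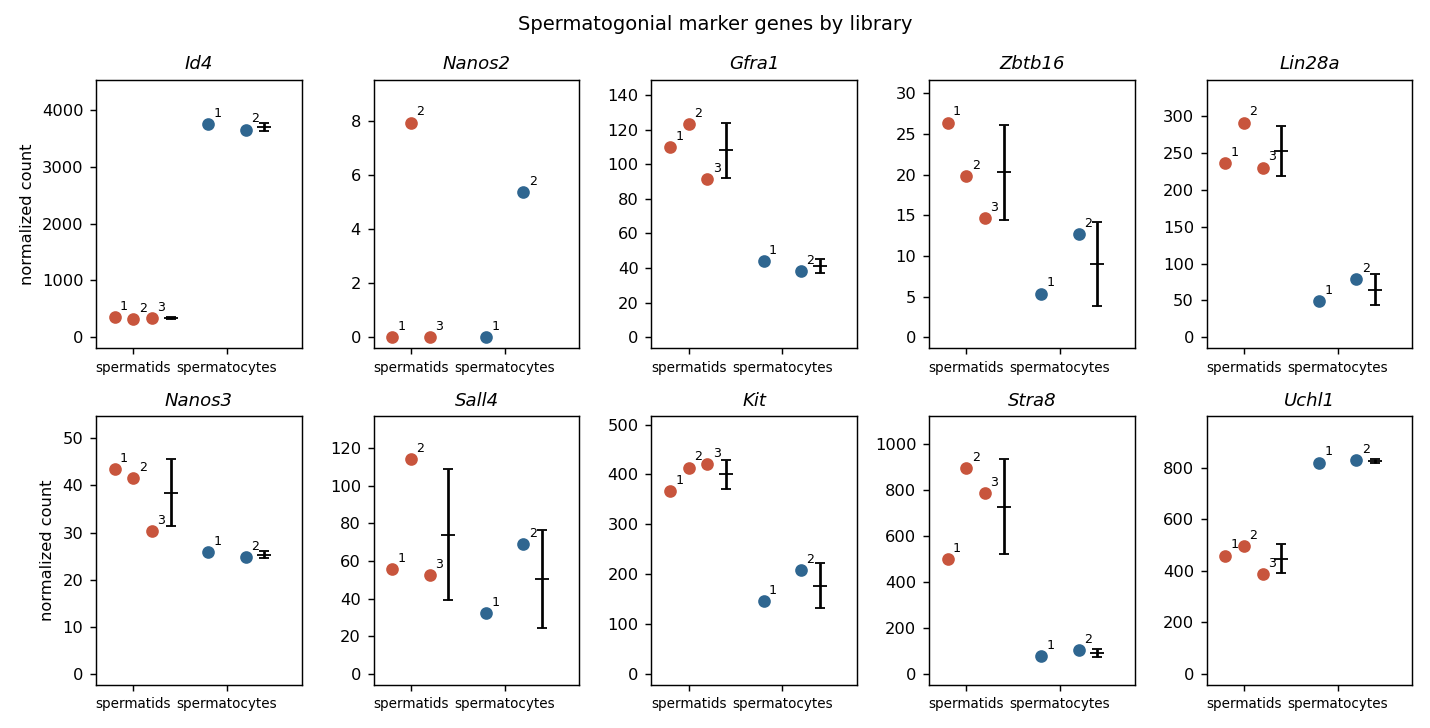
Normalized count of each marker gene in every library (points, numbered by replicate; red, spermatids; blue, spermatocytes), with the mean and SD beside each group except for Nanos2, which had reads in 1 library of each group. Id4 and Uchl1 are lower in every spermatid library than in either spermatocyte library, and Stra8, Lin28a, Gfra1 and Kit are higher in every spermatid library.

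The libraries held 52784231 to 84361908 reads. Of the markers of the labelled cells, 8 of 8 spermatid genes were higher in spermatids, and 8 of 11 spermatocyte genes were lower in spermatids, with Dmc1 higher and Sycp1 and Ccna1 not called. Sertoli cell markers were summed at 3112, 3335 and 2660 in spermatids and at 71162 and 94687 in spermatocytes, and 16 of 17 were lower in spermatids. Kitl and Gdnf, described below, are in that Sertoli list. Leydig cell markers were lower in spermatids for 8 of 8, with sums of 166 to 386 in spermatids and 3294 to 4053 in spermatocytes. Markers of myoid, endothelial, macrophage and blood cells went the other way, with 8 of 13 higher and 1 lower in spermatids and sums of 2237 to 3406 in spermatids against 804 to 953 in spermatocytes. No gene of these lists was at 0 in all libraries of a group. In such bulk samples, fewer cells of a type and less RNA per cell cannot be told apart.

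**Figure D2:**
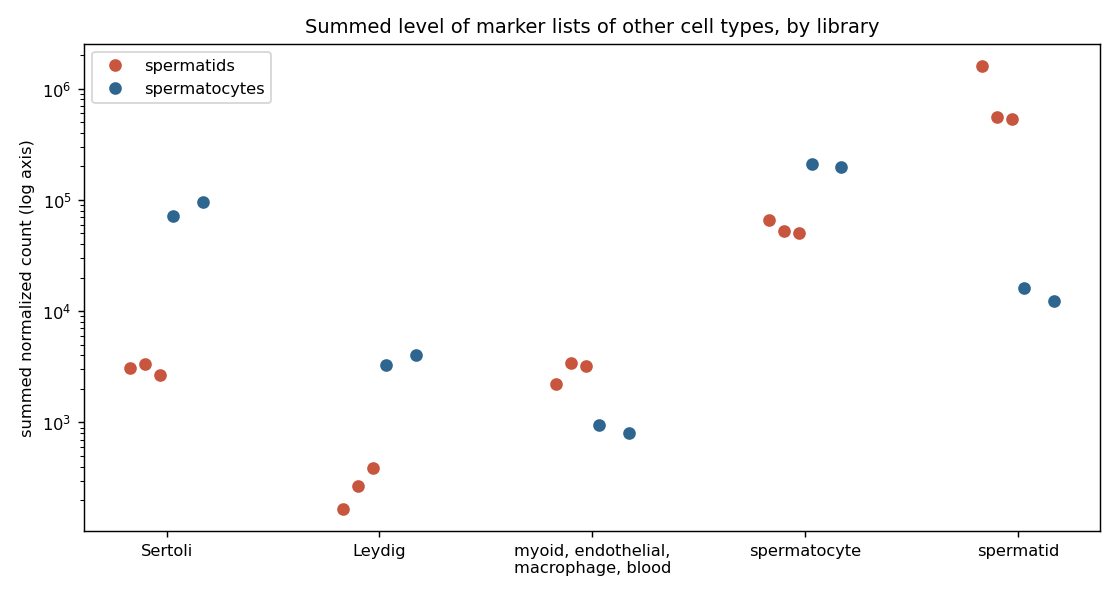
Summed normalized count of 5 marker lists in each library on a log axis (red, spermatids; blue, spermatocytes). Sertoli, Leydig and spermatocyte lists are lower in spermatids, and the spermatid list and the list of myoid, endothelial, macrophage and blood cells are higher there.

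Id4, an inhibitor of DNA binding that lacks a basic region and sequesters helix-loop-helix partners, marks the stem cell end of the spermatogonial pool. It had normalized counts of 350, 320 and 342 in the spermatid libraries and 3751 and 3650 in the spermatocyte libraries (chr13:48261228-48264036, mm10). All spermatid values lay far under both spermatocyte values, and replicates were close within each group. Spermatids averaged 337 ± 15.6 (SD, n = 3) and spermatocytes 3700.1 ± 71.4 (SD, n = 2), a log2 fold change of -3.45 ± 0.11 (SE; limma adjusted p = 7.9e-07), so that spermatids kept 9.12% of the spermatocyte level. Sertoli markers were also lower in spermatids, and their part in the values of Id4 was not tested. Between the spermatocyte libraries, replicate 2 over replicate 1, the ratio was 0.973 for Id4 and 1.33 for the summed Sertoli markers. The row overlaps 1396 bases of A330033J07Rik, whose normalized counts were 26.4 to 36.7 in spermatids and 67.1 to 74.3 in spermatocytes, small beside Id4 in spermatocytes.

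Gfra1, the co-receptor through which GDNF acts on stem cells, was low in both cell types and higher in spermatids. Its normalized counts were 110, 123 and 91.2 in spermatids and 44.2 and 38.2 in spermatocytes (chr19:58235607-58455319). The groups did not overlap, and all 5 values were low. The means were 108 ± 16.0 (SD, n = 3) in spermatids and 41.2 ± 4.20 (SD, n = 2) in spermatocytes, a log2 fold change of 1.36 ± 0.26 (SE; limma adjusted p = 0.0025). With libraries rescaled to equal totals it was 0.73, just past the threshold (limma adjusted p = 0.042).

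Nanos2, an RNA-binding repressor that keeps stem cells from differentiating, was close to absent. It had 0, 8 and 0 reads in spermatid replicates 1, 2 and 3 and 0 and 8 in spermatocyte replicates 1 and 2 (chr7:18987524-18988962). Reads were thus seen in 1 library of each group. Per 1000000 reads this was 0.0358 in spermatids (exact 95% Poisson interval 0.0155 to 0.0705) and 0.0601 in spermatocytes (0.0259 to 0.118), intervals that overlap and that cover counting error only. A library with 0 reads allows up to 3 reads, a normalized count of 4.65 in spermatid replicate 1, 3.14 in spermatid replicate 3 and 3.23 in spermatocyte replicate 1. The row lies within an unnamed row with normalized counts of 28.3 to 35.7 in spermatids and 0 to 2.15 in spermatocytes, and no difference of Nanos2 was detectable at this depth.

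Zbtb16, the zinc finger repressor PLZF of undifferentiated spermatogonia, was barely above the level at which genes were tested. Its reads numbered 17, 20 and 14 in spermatids and 5 and 19 in spermatocytes, or normalized counts of 26.4, 19.8 and 14.7 in spermatids and 5.39 and 12.7 in spermatocytes (chr9:48654297-48836230). The groups did not overlap, but spermatid replicate 3 and spermatocyte replicate 2 were close. Spermatids averaged 20.3 ± 5.86 (SD, n = 3) and spermatocytes 9.06 ± 5.20 (SD, n = 2), a log2 fold change of 1.15 ± 0.49 (SE) that missed the threshold (limma adjusted p = 0.066). Leaving out spermatocyte replicate 2 brought it past (1.70, limma adjusted p = 0.039) and leaving out spermatocyte replicate 1 took it to 0.59 (0.36), so the value rests on which spermatocyte library is used. An unnamed row that overlaps the gene had normalized counts of 9.30 to 11.9 in spermatids and 0.671 to 3.23 in spermatocytes, lower in each group than those of Zbtb16. The strand setting of the counting is not given in the sources used here, so reads of overlapping rows cannot be told apart, and 9 of the 10 members overlap another row.

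Among the RNA-binding proteins and regulators of progenitors, Lin28a was the member with a clear difference. LIN28A blocks the maturation of let-7 microRNAs. Its gene had normalized counts of 236, 291 and 230 in spermatids and 49.5 and 79.1 in spermatocytes (chr4:134003330-134018816). Every spermatid library was well above both spermatocyte libraries. The means were 252 ± 34.1 (SD, n = 3) in spermatids and 64.3 ± 20.9 (SD, n = 2) in spermatocytes, a log2 fold change of 1.98 ± 0.26 (SE; limma adjusted p = 0.00043). The row shares 4236 bases with Dhdds, which was lower in spermatids (log2 fold change -0.92, limma adjusted p = 0.0028). Dhdds had normalized counts of 442 to 626 in spermatids and 1050 in both spermatocyte libraries, above Lin28a in every library. The part of shared reads in the Lin28a values was not tested. The row also overlaps 2 unnamed rows that were higher in spermatids (1.43 and 2.61, limma adjusted p = 0.022 and 0.0011).

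Nanos3, a relative of Nanos2 that protects germ cells and is also found in differentiating spermatogonia, had normalized counts of 43.4, 41.6 and 30.4 in spermatids and 25.9 and 24.8 in spermatocytes (chr8:84173733-84176552). Spermatids were all higher, replicate 3 by little. The means of 38.5 ± 7.06 (SD, n = 3) in spermatids and 25.3 ± 0.737 (SD, n = 2) in spermatocytes gave a log2 fold change of 0.57 ± 0.32 (SE; limma adjusted p = 0.15), and equal library totals turned it to -0.06. Its row lies within that of Mri1, with 3.14 to 7.93 in spermatids and 25.5 to 28.0 in spermatocytes, where it was as high as Nanos3.

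Sall4, a zinc finger regulator of pluripotent cells and of undifferentiated spermatogonia, had normalized counts of 55.8, 114 and 52.4 in spermatids and 32.3 and 69.1 in spermatocytes (chr2:168748332-168767201). Here the groups overlapped, and replicate 2 was the highest library of each group. The means were 74.1 ± 34.6 (SD, n = 3) in spermatids and 50.7 ± 26.0 (SD, n = 2) in spermatocytes, and the log2 fold change of 0.54 ± 0.48 (SE; limma adjusted p = 0.33) ran from -0.09 with equal library totals to 1.08 without spermatocyte replicate 2, and was 0.19 without spermatid replicate 2.

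Kit and Stra8, the markers of differentiation and of the approach to meiosis, were both higher in spermatids, by different amounts. Kit had normalized counts of 367, 414 and 421 in spermatids and 146 and 209 in spermatocytes (chr5:75574987-75656719), with no overlap between the groups. Its means were 401 ± 29.3 (SD, n = 3) in spermatids and 178 ± 43.9 (SD, n = 2) in spermatocytes, a log2 fold change of 1.19 ± 0.20 (SE; limma adjusted p = 0.0013). With libraries rescaled to equal totals this fell to 0.55 and the call was lost (limma adjusted p = 0.079). The size and the call of the Kit difference thus depend on the size factors, while Kit stayed higher in spermatids in all 15 alternatives. An unnamed row that overlaps the gene had 0 in every spermatid library and at most 3.23 in spermatocytes.

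Stra8 had the largest rise of the 9 tested members. Its normalized counts were 499, 896 and 787 in spermatids and 79.7 and 103 in spermatocytes (chr6:34920163-34939342), and no other row overlaps it. The spermatid libraries differed among themselves, with replicate 1 lowest, yet replicate 1 was still far above both spermatocyte libraries. The means were 727 ± 205 (SD, n = 3) in spermatids and 91.5 ± 16.7 (SD, n = 2) in spermatocytes, 7.95-fold higher in spermatids, with a log2 fold change of 2.95 ± 0.28 (SE; limma adjusted p = 8.2e-05) that stayed between 2.30 and 3.20 in 15 alternatives. Gm4969 (Meiosin), whose protein works with STRA8 at the entry into meiosis, was also higher in spermatids, with normalized counts of 698, 1888 and 1105 in spermatids and 108 and 113 in spermatocytes (log2 fold change 3.35 ± 0.38, limma adjusted p = 2.0e-04), and its spermatid libraries fell in the same order as those of Stra8. Dmc1, the recombinase of early meiotic prophase in the spermatocyte list, had 488, 704 and 363 in spermatids and 96.9 and 119 in spermatocytes. It was the only gene of that list called higher in spermatids, where 8 of 11 were lower. Spermatid replicate 1 was lowest for Stra8 and Gm4969, whereas Dmc1 was lowest in replicate 3. The spermatid marker sum was 1590729 in replicate 1, against 558104 and 535343 in replicates 2 and 3. The part of spermatid content in these values was not tested. Gm4969 and Dmc1 were singled out here after their values were seen.

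Uchl1, a deubiquitinating enzyme known as PGP9.5 and used to stain spermatogonia, was lower in spermatids. Its normalized counts were 459, 497 and 388 in spermatids and 820 and 830 in spermatocytes (chr5:66676121-66687234). The groups lay well apart, and the spermatocyte libraries were almost equal. Spermatids averaged 448 ± 55.2 (SD, n = 3) and spermatocytes 825 ± 7.36 (SD, n = 2), so spermatids kept 54.3% of the spermatocyte level (log2 fold change -0.89 ± 0.15, SE; limma adjusted p = 0.0013), and with equal library totals the difference was -1.53. The antisense row Uchl1os, over 378 shared bases, had 1.55 to 3.14 in spermatids and 4.31 to 4.69 in spermatocytes, small beside Uchl1.

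**Figure D3:**
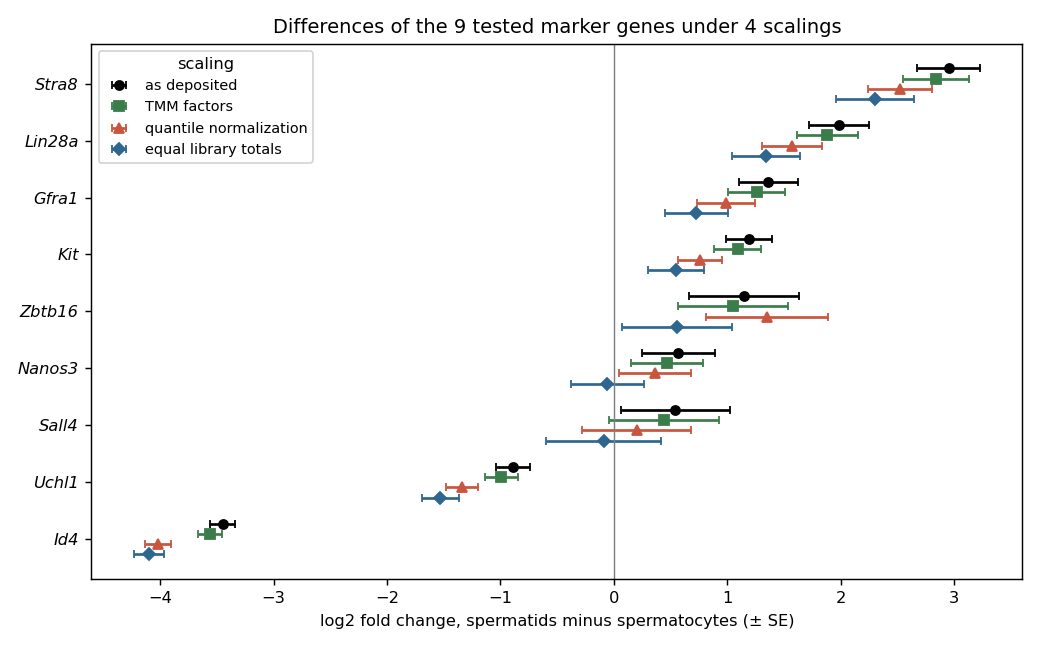
Log2 fold change, spermatids minus spermatocytes, of the 9 tested marker genes with limma's standard error, under the deposited scaling and 3 others. Zbtb16 alone changes rank, past Kit and Gfra1 after quantile normalization and just past Kit with equal totals; Id4 and Uchl1 stay negative, Stra8, Lin28a, Gfra1, Kit and Zbtb16 stay positive, and Nanos3 and Sall4 reach values below 0 with equal library totals.

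The scaling sets the zero point of these comparisons. Over all genes tested, the median difference on the log2 scale moved to -0.57 when libraries were set to equal totals and to -0.39 by quantile normalization, and was -0.03 by TMM, against 0.07 on the deposited scale. The called members kept their direction under each of these, and Kit was the only one of the 6 whose call ended, with equal totals.

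Levels of different genes were compared as normalized count per kilobase of exon, from the GENCODE vM21 exon union. In spermatids the order from the top was Stra8 at 403, Uchl1 at 274, Id4 at 87.7, Lin28a at 63.1, Kit at 45.0, Nanos3 at 41.6, Gfra1 at 19.7, Sall4 at 13.4, Zbtb16 at 3.84 and Nanos2 at 1.69. The ranges of neighbours overlapped for Stra8 and Uchl1, Kit and Nanos3, Gfra1 and Sall4, and Zbtb16 and Nanos2, so those pairs are not separated. In spermatocytes the order was Id4 at 961, Uchl1 at 505, Stra8 at 50.7, Nanos3 at 27.4, Kit at 19.9, Lin28a at 16.1, Sall4 at 9.16, Gfra1 at 7.52, and Nanos2 and Zbtb16 both at 1.72. There the ranges overlapped from Kit through Lin28a and Sall4 to Gfra1, and again for Nanos2 and Zbtb16. Among 16742 tested genes with 1 row and a known exon length, the Id4 level per kilobase exceeded 45.1% of genes in spermatids and 83.8% in spermatocytes, and the Stra8 level exceeded 66.9% in spermatids and 41.5% in spermatocytes. GENCODE runs past the deposited row for several members. For Id4 it ends at 48266026 against 48264036, and its 3849 exon bases exceed the row's span. The Id4 levels per kilobase are therefore understated if reads were counted within the row alone. Zbtb16 exceeded only 3.57% of genes in spermatids and 6.74% in spermatocytes.

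**Figure D4:**
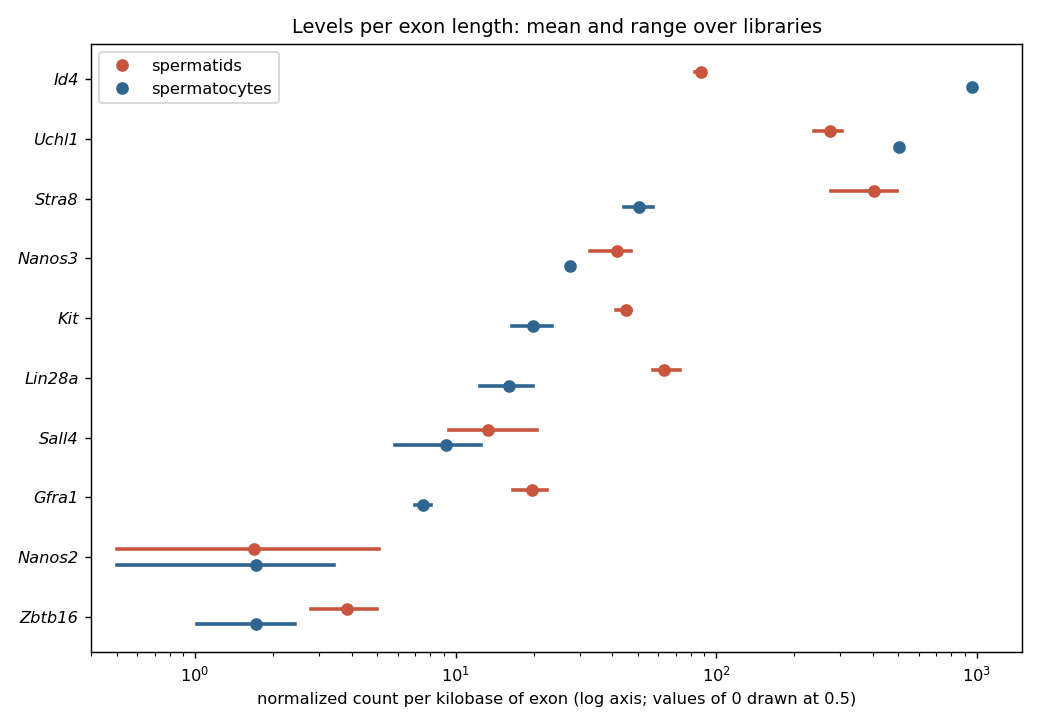
Normalized count per kilobase of exon for each marker gene on a log axis, as the mean (point) and range (line) over the 3 spermatid (red) and 2 spermatocyte (blue) libraries; values of 0 are drawn at 0.5. Id4 and Uchl1 stand highest in spermatocytes, Stra8 and Uchl1 in spermatids, and Zbtb16 and Nanos2 lowest in both.

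The spermatocyte libraries differed from each other in part of the members. In replicate 2 against replicate 1 the ratio was 2.37 for Zbtb16, 2.14 for Sall4, 1.60 for Lin28a, 1.42 for Kit and 1.30 for Stra8. Id4, Uchl1 and Nanos3 had ratios of 0.973, 1.01 and 0.960, and Gfra1 was lower in replicate 2, with a ratio of 0.865. Over the 10 members, 7 were higher in replicate 2. Sertoli markers were higher there for 16 of 17, with a median log2 ratio of 0.48 against -0.03 for all genes tested and 0.37 for the tested members, and their part in the members' values was not tested.

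Other spermatogonial genes were also split between the cell types. Means from here on are given ± SD over 3 spermatid and 2 spermatocyte libraries. Of 33 tested genes of a list of 38, 15 were higher and 9 lower in spermatids, with a median log2 fold change of 0.42, against 11 higher and 12 lower with equal library totals. Over all 28370 genes tested 40.6% were higher and 36.5% lower, and equal totals gave 8645 higher and 14016 lower. The balance thus turned for all genes too, and these values are the background for each list below. The most abundant were Scml2, a Polycomb-related gene of the germ line, at 3540 ± 599 (SD, n = 3) in spermatids and 251 ± 61.6 (SD, n = 2) in spermatocytes, Epcam, a surface protein used to sort germ cells, at 2043 ± 80.3 in spermatids and 1095 ± 96.0 in spermatocytes, and Egr4 at 460 ± 131 in spermatids and 2513 ± 236 in spermatocytes. Scml2 and Epcam were higher and Egr4 lower in spermatids (limma adjusted p = 6.1e-06, 2.6e-04 and 8.1e-05); Epcam was not past the threshold with equal totals. Pou5f1, the pluripotency factor OCT4, had the largest difference beside Lhx1, at 575 ± 55.6 in spermatids and 16.2 ± 4.61 in spermatocytes (limma adjusted p = 3.5e-06), and since it has retrocopies in the mouse genome its level is uncertain. Neurog3, Pax7, T, Pdx1 and Upp1 fell under the filter.

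In the GDNF and FGF pathway the ligand and the receptors did not move together. Gdnf itself, made by Sertoli and myoid cells, had normalized counts of 68.2, 80.3 and 107 in spermatids and 82.9 and 176 in spermatocytes, which overlap (limma adjusted p = 0.24), and it passed as lower without spermatocyte replicate 1 (-1.06) and by equal totals (-1.16). Ret, the signalling receptor, was higher in spermatids, at 83.5 ± 17.4 (SD, n = 3) in spermatids and 20.9 ± 11.2 (SD, n = 2) in spermatocytes (limma adjusted p = 0.0032). Of the other co-receptors, Gfra2 was higher in spermatids at 2394 ± 434 against 446 ± 178 in spermatocytes, Gfra3 was higher at 29.3 ± 13.4 against 4.17 ± 0.202, and Gfra4 was lower at 332 ± 16.2 against 776 ± 25.6 (limma adjusted p = 1.6e-04, 0.0022 and 1.5e-04). All 4 co-receptor genes thus had reads in both cell types, with Gfra4 alone lower in spermatids. In spermatocytes Gfra3 rested on 4 and 6 reads, close to the floor of 3 reads. Egr3, a transcription factor gene that responds to growth factors, was at 5336 ± 843 in spermatids and 75.3 ± 23.0 in spermatocytes, and Ncam1, an adhesion molecule that can bind GDNF, at 1382 ± 128 in spermatids and 793 ± 82.5 in spermatocytes (limma adjusted p = 1.2e-06 and 0.0013); the row of Ncam1 overlaps a more abundant row, and its call ended with equal totals. Lhx1, a GDNF-responsive gene, had 53.4 to 89.9 in spermatids and 0 and 1.34 in spermatocytes. Over the 20 genes 9 were higher and 6 lower, where 40.6% of all genes tested were higher and 36.5% lower. The median log2 fold change was 0.08, and 6 were higher and 9 lower with equal totals.

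Kitl, the ligand of KIT made by Sertoli cells, was lower in spermatids where Kit was higher, at 29.5, 23.8 and 34.6 in spermatids and 148 and 213 in spermatocytes (log2 fold change -2.57 ± 0.31, SE; limma adjusted p = 2.5e-04). Kitl is itself in the list of Sertoli markers, so sharing their direction is not separate evidence. The part of Sertoli cells in its values was not tested. Of 22 KIT signalling genes 9 were higher and 7 lower, with a median of 0.17. These are 40.9% and 31.8%, near the 40.6% and 36.5% of all genes tested. With equal totals 5 were higher and 10 lower. Mtor and the ubiquitin ligase gene Cbl, the most abundant, were at 43039 ± 2353 and 10695 ± 834 in spermatids and 24382 ± 152 and 7396 ± 483 in spermatocytes (limma adjusted p = 1.4e-04 and 0.0025), but Mtor lost its call with equal totals and Cbl turned to -0.12. Khdrbs1 (SAM68), an RNA-binding protein reported as a partner of truncated KIT, was lower in spermatids, at 1768 ± 122 against 6944 ± 253 in spermatocytes, and so was the kinase gene Fyn, at 120 ± 22.6 against 1349 ± 369 (limma adjusted p = 4.8e-06 and 1.9e-05). Sohlh1, a germ cell regulator that acts upstream of Kit, was higher, at 139 ± 32.6 in spermatids and 19.4 ± 7.64 in spermatocytes (limma adjusted p = 3.2e-04).

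Of 19 tested retinoic acid genes 11 were higher and 7 lower in spermatids, where 40.6% of all genes tested were higher and 36.5% lower, with a median log2 fold change of 1.46, and with equal totals 9 were higher and 8 lower. Rec8, the meiotic cohesin that retinoic acid also induces, was at 20116 ± 1995 in spermatids and 572 ± 119 in spermatocytes, and Rxra, a retinoid receptor, at 3560 ± 327 in spermatids and 84.4 ± 2.04 in spermatocytes (limma adjusted p = 6.1e-07 and 4.2e-07). Aldh1a2, which makes retinoic acid, was slightly lower, at 9200 ± 59.7 in spermatids and 11569 ± 596 in spermatocytes (limma adjusted p = 0.0087), and its call ended without spermatocyte replicate 1 and without an eBayes trend.

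Paralogs and partners of the RNA-binding members moved unevenly. Nanos1 was at 83.7, 112 and 94.3 in spermatids and 28.0 and 50.3 in spermatocytes and was called higher in spermatids (limma adjusted p = 0.0087), a call lost with equal totals and without spermatocyte replicate 1. Of 15 NANOS partners, with the CCR4-NOT deadenylase, 4 were higher and 5 lower (median -0.22), where 40.6% of all genes tested were higher and 36.5% lower. With equal totals limma called 0 higher, also 0 at an unadjusted p under 0.05, and 13 lower, whereas edgeR on the recovered reads called 3 higher and 5 lower and DESeq2 4 higher and 6 lower without that rescaling. By limma 2 were higher without spermatocyte replicate 1 or without replicate 2, and 8 lower without spermatid replicate 1. Cnot8, a catalytic subunit, was at 106 ± 44.0 in spermatids and 781 ± 12.9 in spermatocytes, and Ddx6, an RNA helicase of repressed messages, at 1097 ± 186 in spermatids and 4481 ± 134 in spermatocytes (limma adjusted p = 1.7e-04 and 3.1e-05). The abundant members Cnot1 and Cnot10 were not called (limma adjusted p = 0.29 and 0.056), though Cnot10 passed as lower without spermatid replicate 1 (-0.23) and by equal totals (-0.86).

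Lin28b went the opposite way to its paralog Lin28a. It had normalized counts of 341, 351 and 324 in spermatids and 1380 and 1284 in spermatocytes, a log2 fold change of -1.97 ± 0.12 (SE; limma adjusted p = 1.2e-05), against 1.98 for Lin28a. Dis3l2, the nuclease that degrades let-7 precursors marked through LIN28A, was higher in spermatids at 9330 ± 375 against 1725 ± 139 in spermatocytes, and the RNA-binding protein genes Igf2bp1 and Igf2bp3 were higher at 1089 ± 127 and 10378 ± 3247 in spermatids against 39.7 ± 15.0 and 3684 ± 161 in spermatocytes (limma adjusted p = 1.6e-06, 5.8e-06 and 9.7e-04). Zcchc11 (TUT4), the enzyme that adds uridines to let-7 precursors, was at 4721 ± 455 in spermatids and 4356 ± 159 in spermatocytes (limma adjusted p = 0.37), and equal totals made it a lower call. Of the 14 genes in this list 5 were higher and 4 lower (median 0.35), where 40.6% of all genes tested were higher and 36.5% lower. With equal totals 4 were higher and 7 lower.

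The other SALL genes, like Sall4, were not called. Sall3, the most abundant, was at 1347 ± 81.1 in spermatids and 1287 ± 133 in spermatocytes, Sall1 at 115 ± 30.9 in spermatids and 78.3 ± 39.1 in spermatocytes, and Sall2 at 58.5 ± 30.6 in spermatids and 58.8 ± 26.8 in spermatocytes (limma adjusted p = 0.61, 0.18 and 0.90), but Sall3 was called lower with equal totals and Sall1 higher without spermatocyte replicate 2. Of 21 SALL and NuRD partner genes 7 were higher and 5 lower (median 0.07), where 40.6% of all genes tested were higher and 36.5% lower. With equal totals 3 were higher and 11 lower. Rbbp4, a histone-binding subunit, was lower at 8348 ± 290 in spermatids against 24140.4 ± 284 in spermatocytes, and Gatad2b, a NuRD subunit, was higher at 2745 ± 436 against 391 ± 17.7 (limma adjusted p = 5.7e-06 and 7.4e-06). Cul3, a ubiquitin ligase scaffold that binds ZBTB16, was higher as deposited, at 57925 ± 10175 in spermatids and 39048 ± 2423 in spermatocytes (limma adjusted p = 0.012), and turned to -0.09 with equal totals and lost its call without spermatocyte replicate 2 (0.49), and Chd4 was not called (0.48).

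Among the other ID genes, Id1 and Id3 were higher in spermatids, at 61.7 ± 5.17 and 197 ± 29.8 in spermatids against 19.3 ± 5.93 and 41.8 ± 0.308 in spermatocytes (limma adjusted p = 0.0027 and 1.3e-04), and Id2 was at 96.9 ± 41.2 in spermatids and 161 ± 47.6 in spermatocytes (limma adjusted p = 0.11), passing as lower without spermatid replicate 1 (-1.09) and by equal totals (-1.42). Tcf12 and Rb1 were higher at 400 ± 34.7 and 3265 ± 837 in spermatids against 111 ± 8.33 and 1225 ± 28.2 in spermatocytes (limma adjusted p = 7.5e-05 and 0.0011), although the row of Rb1 overlaps a more abundant row. Tcf3 and Tcf4, E proteins like TCF12, were not called (0.16 and 0.080). Of the 8 genes 4 were higher and the other 4 not called, with a median of 0.81, where 40.6% of all genes tested were higher and 36.5% lower. Under equal totals the counts became 4 and 4, and leaving out spermatid replicate 1 or replicate 2 gave 1 lower gene.

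Of the relatives of Uchl1, Uchl3 and Uchl5 were not called, at 4394 ± 448 and 4271 ± 453 in spermatids and 4136 ± 358 and 4167 ± 286 in spermatocytes (limma adjusted p = 0.53 and 0.81), and both were called lower with equal totals; Uchl3 can share reads with its near copy Uchl4. Bap1, another hydrolase of this family, was higher at 17760 ± 568 in spermatids against 7491 ± 205 in spermatocytes (limma adjusted p = 1.5e-05). The ubiquitin gene Ubb was higher at 385229 ± 16155 in spermatids against 290069 ± 20460 in spermatocytes (limma adjusted p = 0.0070), with reads that repeated ubiquitin units could share, and it turned to -0.24 with equal totals and lost its call without spermatocyte replicate 2 (0.34). Of the 8 genes in this list 4 were higher and 1 lower (median 0.25), where 40.6% of all genes tested were higher and 36.5% lower. With equal totals 3 were higher and 5 lower.

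**Figure D5:**
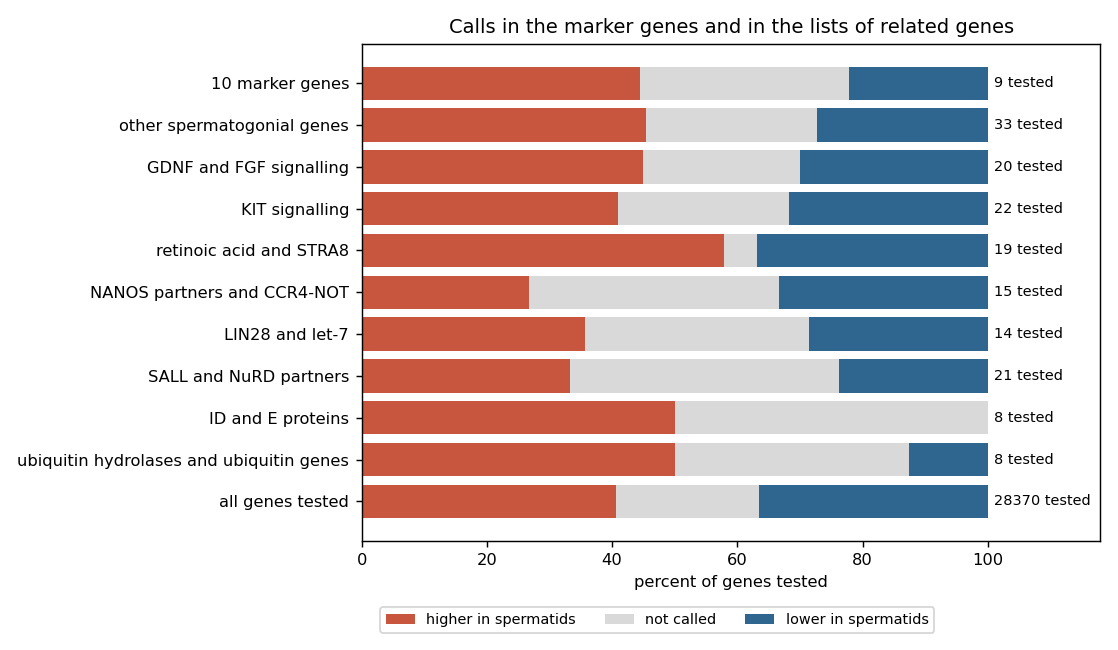
Percent of tested genes called higher in spermatids (red), not called (grey) and called lower (blue) among the marker genes, in 9 lists of related genes and in all genes tested, with the number tested at the right. The marker genes have 4 higher and 2 lower of 9 tested, and all genes tested have 40.6% higher and 36.5% lower.

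Over the 5 libraries, the genes whose pattern was most like that of Id4 were Cdc42ep4, Gsdmcl2 and Tfdp1, with root mean square differences of 0.0365, 0.0384 and 0.0450 between log2 values centred on each gene's mean. For Uchl1 they were Paox, Pdrg1 and Pcgf3, with 0.0302, 0.0335 and 0.0360. Of the 15489 named genes compared, 10 lay within 0.1 of Id4 and 108 within 0.1 of Uchl1.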

How the data were processed

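RNA was measured in 3 spermatid and 2 spermatocyte samples, grouped by the cell type label, and replicate numbers follow accession order and pair nothing. A TruSeq Stranded mRNA kit was used, per the labels' protocols. The deposited values are a normalized signal, counts per gene scaled per library with DESeq, as the table's name says. Coordinates are in mm10, per the file headers. STAR 2.4.0 is named in the submitters' processing notes. The program that counted reads, and its use of strand, were not stated in the labels or headers.

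Every value was a whole multiple of its column's smallest value within 0.001, for 100% of values, and reads were recovered by that division. Genes with a mean of at least 10 were tested with limma 3.58.1 (R 4.3.3) on log2(value + 1), which understates changes of low genes, with an eBayes trend and Benjamini-Hochberg adjustment at 0.05 over all 28370 genes. Recovered reads were tested with edgeR 4.0.16 and DESeq2 1.42.0 as alternatives, beside other pseudocounts, filters and scalings and leaving out each replicate; edgeR called 11537 genes higher and 10394 lower in spermatids. The limma, edgeR and DESeq2 steps were tested on simulated data.

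Members and lists were chosen with earlier results of these data known. Named genes were the members; in each of 9 lists the 3 with the highest mean and the 2 called with the largest change; ligands, receptors and paralogs of members; and, for the 2 most abundant members, the 3 genes of most similar pattern. Some genes that this rule names are not reported here. Of the 49 named list genes, 27 overlap another row, and 2 a row of higher mean. Sequences came from RefSeq (GRCm38.p6) and exon lengths from GENCODE vM21, by symbol. Insl3, Hbb-b1 and Izumo1 of the marker lists matched no row used here. Python 3.11.15, pandas 2.3.3, numpy 2.4.6, scipy 1.17.1 and matplotlib 3.10.9 were used.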

Additional observations from a re-analysis of the deposited data

How the results depend on the processing

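Of the 6 called members, Id4, Uchl1, Stra8, Lin28a and Gfra1 kept direction and call under every alternative that tested them, with log2 fold changes of -4.10 to -3.41, -1.53 to -0.79, 2.30 to 3.20, 1.34 to 2.32 and 0.73 to 1.48. Kit ran from 0.55 to 1.44 and lost its call with equal library totals (0.547). Zbtb16 passed with a pseudocount of 8 (0.743) and without spermatocyte replicate 2 (1.70). With a mean of at least 100, Gfra1, Zbtb16, Nanos3 and Sall4 were not tested. All genes lower in spermatids numbered 10359 in the main test, 17263 with no filter and 6029 with a mean of at least 100. Of all calls 52.6% were higher in spermatids as deposited, 38.1% with equal totals, 42.0% after quantile normalization, 50.2% with TMM factors and 43.0% with no filter. The 9 lists together, each gene once, had 61 higher and 42 lower of 149 tested, against 39 and 76 with equal totals and 73 lower after quantile normalization; the cause was not tested. Among NANOS partners 2 were higher without an eBayes trend and 9 lower with TMM factors. By list, quantile normalization gave 5 higher in KIT signalling, 1 higher and 13 lower among NANOS partners, 7 lower in the LIN28 list, 3 higher and 11 lower among SALL and NuRD partners, 3 lower in the ID list (1 with TMM factors) and 4 lower in the ubiquitin list. With a mean of at least 100, 9 other spermatogonial, 4 GDNF and 7 retinoic acid genes were higher.

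Signs turned with equal totals and quantile normalization, in that order, for Cbl (-0.115 and -0.210), Cnot1 (-0.510 and -0.567), Zcchc11 (-0.534 and -0.532), Cul3 (-0.0901 and -0.133), Chd4 (-0.583 and -0.700), Ubb (-0.236 and -0.165), Sall3 (-0.577 and -0.417), Uchl3 (-0.561 and -0.541) and Uchl5 (-0.614 and -0.598), and for Tcf4 with equal totals (-0.405). For the named list genes, 685 results stayed on their side of the threshold with no called value changing sign, 10 lost the call, 13 gained it and 19 changed sign with a call before or after. No paired analysis was possible because the replicate numbers are in accession order and pair no samples. Depth limits Nanos2, with 8 reads per group, and Zbtb16, with 51 reads in spermatids and 24 in spermatocytes.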

Other observations

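Of the retinoid genes not described above, 3 are given here, chosen after their values were seen. Lrat, which stores retinol as esters, was at 2090, 2389 and 2334 in spermatids and 673 and 672 in spermatocytes, and Rdh10, which begins the oxidation of retinol, at 921, 684 and 686 in spermatids and 58.2 and 88.5 in spermatocytes (limma adjusted p = 1.2e-05 and 2.2e-05). Aldh1a1, another retinaldehyde dehydrogenase gene, was lower, at 350, 801 and 441 in spermatids and 2189 and 3017 in spermatocytes (limma adjusted p = 6.8e-04).

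Itga6, Etv5 and Gpr125, also chosen after their values were seen, were lower in spermatids and higher in spermatocyte replicate 2 than in replicate 1, as Sertoli markers were. In the list of other spermatogonial genes, 26 of 38 were higher in spermatocyte replicate 2. Of the 33 tested there, 15 were higher and 9 lower in spermatids. Itga6, an integrin used to enrich stem cells, was at 79.1, 88.2 and 80.7 in spermatids and 487 and 740 in spermatocytes, Etv5, a GDNF-responsive transcription factor gene that Sertoli cells also express, at 20.2, 45.6 and 46.1 in spermatids and 345 and 494 in spermatocytes, and Gpr125 at 397, 533 and 460 in spermatids and 1186 and 1550 in spermatocytes (limma adjusted p = 4.0e-05, 2.3e-04 and 2.3e-04). The part of Sertoli cells in these values was not tested.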
